A study of Mus musculus with 3 samples.

Results

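The 9 genes described here code for proteases that act on the extracellular matrix or on plasminogen, and for inhibitors or receptors of such proteases. They were listed by name with earlier results of these data known, and all 9 have a row among the 9781 gene rows used. They are *Mmp2*, *Mmp23*, *Adamts4*, the inhibitors *Timp1* and *Timp3*, *Plat* and *Plaur* of the plasminogen system, and the serine proteases *Htra1* and *Htra3*. The cells came from mouse tissue labelled normal and were profiled in droplets, with 1 library for each of E18.5 male urogenital sinus (UGS), P14 prostate and P35 prostate. The tissues were dissociated with collagenase and TrypLE. The study bred *Osr1-Cre* mice with a membrane Tomato and membrane GFP reporter, in which GFP marks cells that have had Cre activity, but the labels give neither the genotype nor the number of animals behind these 3 libraries. Cell barcodes ended in 1, 2 or 3, but the labels do not say which ending belongs to which tissue. The endings are therefore called sets 1, 2 and 3, values are given set by set, and no ages were compared.

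Extracellular matrix is remodelled by secreted and membrane-bound proteases, among which the matrix metalloproteinases (MMPs) and the ADAMTS enzymes depend on zinc. Tissue inhibitors of metalloproteinases (TIMPs) bind the active site of these enzymes. In the plasminogen system, the activators *Plat* (tPA) and urokinase turn plasminogen into plasmin, and *Plaur* codes for the cell surface receptor (uPAR) that holds urokinase. Branching of prostate epithelium takes place inside a mesenchyme whose matrix is built up and broken down, and stromal cells are a known source of MMPs and TIMPs.

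To show where the genes lie and what stands before their starts, positions and promoter sequences were taken from RefSeq (GRCm38.p6, the assembly of mm10). *Mmp2* lies on chromosome 8, 92827290 to 92853421, *Mmp23* on chromosome 4, 155650655 to 155654539, *Adamts4* on chromosome 1, 171250129 to 171262267, *Timp1* on chromosome X, 20870166 to 20874737 and *Timp3* on chromosome 10, 86300412 to 86349505. *Plat* lies on chromosome 8, 22757722 to 22782848, *Plaur* on chromosome 7, 24460937 to 24475970, *Htra1* on chromosome 7, 130936203 to 130985658 and *Htra3* on chromosome 5, 35652026 to 35679813. Promoter entries matched 6 of the 9 genes, and none was matched for *Mmp2*, *Plat* and *Adamts4*. The 250 bases before the start are printed 5′ to 3′ for *Plaur*, the gene with more expression in epithelium-like cells, and for *Timp1*, *Timp3* and *Htra1*, which had the opposite order. Capitals mark TGANTCA, the AP-1 motif bound by FOS and JUN proteins, searched on both strands.
Plaur, chr7:24462233-24462482, + strand: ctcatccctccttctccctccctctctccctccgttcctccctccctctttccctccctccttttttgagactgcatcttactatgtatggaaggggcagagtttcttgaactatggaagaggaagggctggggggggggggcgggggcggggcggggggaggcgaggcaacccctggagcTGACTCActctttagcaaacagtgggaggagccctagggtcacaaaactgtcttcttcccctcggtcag
Timp1, chrX:20869916-20870165, + strand: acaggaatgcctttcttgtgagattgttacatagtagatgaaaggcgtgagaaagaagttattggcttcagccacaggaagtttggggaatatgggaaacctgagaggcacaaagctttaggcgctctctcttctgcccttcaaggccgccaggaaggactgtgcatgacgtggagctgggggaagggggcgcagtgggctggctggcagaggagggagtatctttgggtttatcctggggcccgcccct
Timp3, chr10:86300162-86300411, + strand: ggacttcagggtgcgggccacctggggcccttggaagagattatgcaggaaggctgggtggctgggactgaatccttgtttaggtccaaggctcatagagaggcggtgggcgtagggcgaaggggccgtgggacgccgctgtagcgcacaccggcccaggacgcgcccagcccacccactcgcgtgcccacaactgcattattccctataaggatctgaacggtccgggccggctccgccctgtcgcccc
Htra1, chr7:130935953-130936202, + strand: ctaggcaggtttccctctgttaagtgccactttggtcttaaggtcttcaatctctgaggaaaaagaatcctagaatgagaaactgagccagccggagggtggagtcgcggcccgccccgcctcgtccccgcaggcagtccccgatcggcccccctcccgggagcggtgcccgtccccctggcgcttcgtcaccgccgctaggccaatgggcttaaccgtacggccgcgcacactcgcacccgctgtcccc
The *Plaur* window held 1 match, whose first base lay 69 bases before the start, and it lies inside the annotated gene interval, which begins earlier. No match was found in the windows of *Timp1*, *Timp3*, *Htra1*, *Htra3* or either *Mmp23* start. Of all 32851 promoters in the table, 6.75% held TGANTCA in these 250 bases. The GC box GGGCGG, also searched on both strands, was found 3 times in the *Plaur* window, 1 time each in those of *Timp1*, *Timp3* and *Htra1*, and in 32.7% of all promoters. Such matches describe letters and were not tested as sites.

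To place the genes in cell types, the 14476 cells kept were clustered and the clusters were named from marker genes, with the 9 genes left out of the clustering. Sets 1, 2 and 3 had 766, 5350 and 8360 cells, medians of 19357, 1738 and 1788 UMIs (unique molecular identifiers, by which captured mRNA molecules are counted) per cell before cells were left out, and 20511786, 15929745 and 27444044 UMIs in all. Fibroblast-like cells numbered 350, 1701 and 2664, epithelium-like 124, 1428 and 2710 and smooth muscle-like 79, 1569 and 1925. Cluster 1 made up 14.5%, 67.0% and 64.4% of the epithelium-like cells, and cluster 4 the rest. Pericyte-like cells numbered 16, 29 and 129, glia-like 21, 192 and 237, endothelium-like 38, 97 and 197, leukocyte-like 38, 25 and 177 and neuron-like 32, 15 and 18. Unnamed were cluster 7, led by *Myf5* and *Myod1*, cluster 9, led by mitotic genes, and cluster 11, which carried all 11 epithelial markers and was led by *Wfdc15b* and *Folr1*. In a finer clustering, at resolution 1.0, the 26 cells of cluster 11 in set 1 fell in a cluster led by *Sptssb*, *Ivl* and *Upk1a*. Of its 33 and 90 cells in sets 2 and 3, 9 and 32 fell there, and 24 and 58 in one led by *Wfdc15b* and *Folr1*. Some labels were weak. The 6 smooth muscle markers summed to 4449, 25122 and 23712 UMIs per 1000000 (CPM) in smooth muscle-like cells, and the 4 erythroid markers to 5827, 59.0 and 8.51 in the same cells, so the 79 cells of set 1 carried fewer muscle and more erythroid UMIs. The 10 fibroblast markers summed to 5405, 4821 and 3139.7 CPM in smooth muscle-like cells, more than the muscle markers in set 1. In pericyte-like cells they summed to 11157, 7151 and 2724, the smooth muscle markers to 4570.3, 5363 and 9507 and the 6 pericyte markers to 2855, 2333 and 3561, where fibroblast-like cells held 15671, 15914 and 17885 CPM of fibroblast markers. Glia-like cells held 1715, 5948 and 5261 CPM of fibroblast markers, beside 7016, 5622 and 6544 of their own. The 25 leukocyte-like cells of set 2 held 3330.1 CPM of epithelial markers and 5977 of smooth muscle markers, beside 4684 of their own. Endothelium-like cells held 126, 4170.0 and 7.27 CPM of erythroid markers and 72.2, 3749 and 978 of smooth muscle markers, beside 5862, 5451 and 5346 of their own. Sets 1 and 2 shared 1 barcode, sets 2 and 3 shared 13, and sets 1 and 3 shared 0. Values in square brackets are 95% intervals, for counting error only, since each group had 1 library, and no test was possible. Free RNA, which enters every droplet, was not removed.

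The question of which compartment expresses matrix proteases was addressed by comparing fibroblast-like with epithelium-like cells. In each set *Mmp2*, *Mmp23*, *Timp1*, *Timp3*, *Adamts4*, *Plat* and *Htra3* were at least 2-fold higher in fibroblast-like cells, by log2 ratios between 1.38 for *Timp3* in set 1 and 6.77 for *Htra3* in set 3. *Htra1* passed 2-fold in sets 1 and 3 and stood at 0.92 in set 2. *Plaur* was the exception, with higher levels in epithelium-like cells of every set. Counts past 2-fold higher were 8, 7 and 8 of 9, where 25.4%, 20.7% and 22.9% of all genes with at least 10 UMIs passed. Counts past 2-fold lower were 1, 0 and 1, against 16.7%, 15.6% and 21.0% of all genes. The 7 genes named first were past 2-fold in all 3 sets, as were 12.7% of the 6770 genes with enough UMIs. Since the genes were listed with earlier results known, these counts are a description. The median log2 ratio of the 9 genes was 3.495, 3.21 and 2.94, and that of all genes 0.16, 0.05 and -0.10.

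**Figure D1:**
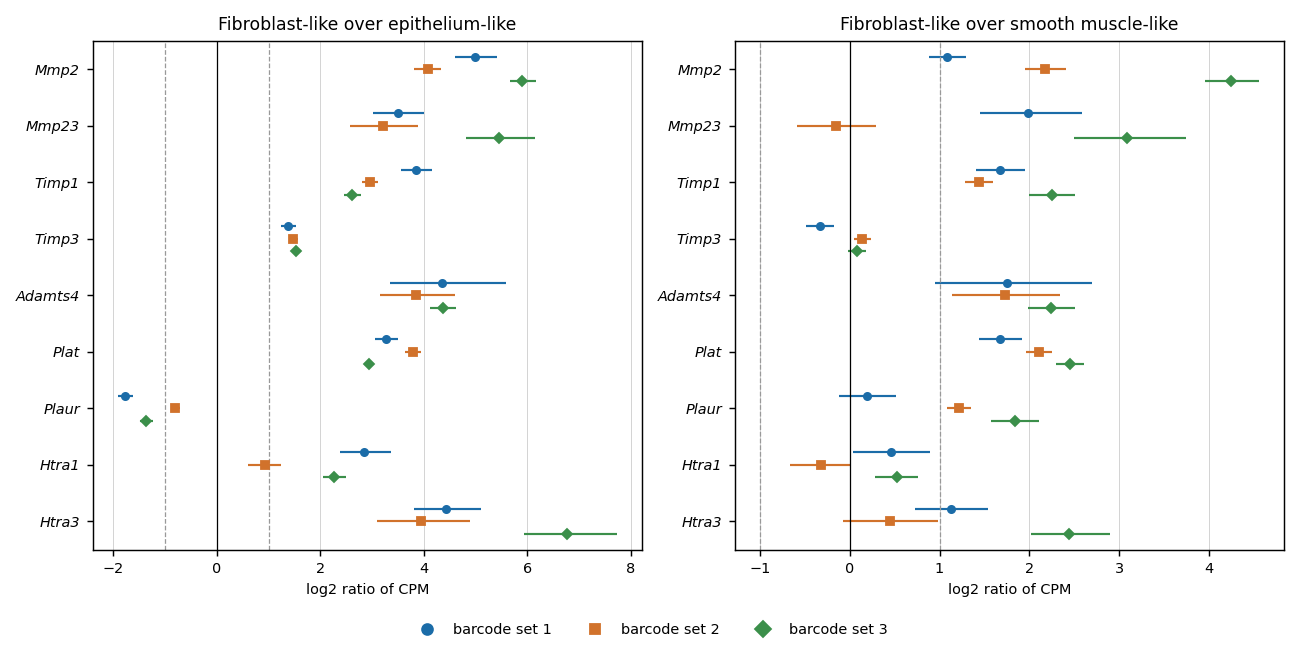
Log2 ratio of CPM for each gene in fibroblast-like over epithelium-like cells (left) and over smooth muscle-like cells (right), with 1 point per barcode set, bars for 95% counting intervals and dashed lines at 2-fold. Only *Plaur* lies left of 0 in all 3 sets against epithelium-like cells, while *Timp3* lies near 0 against smooth muscle-like cells.

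*Mmp2* codes for gelatinase A, which cuts type IV collagen and gelatin, and its levels were highest in fibroblast-like cells. Fibroblast-like cells of sets 1, 2 and 3 held 287 [275, 300.4], 301 [281, 323] and 518 [495, 541] CPM, and epithelium-like cells 9.01 [6.75, 11.8], 17.9 [15.1, 21.1] and 8.63 [7.25, 10.2]. The log2 ratios were 4.995 [4.60, 5.42], 4.07 [3.82, 4.33] and 5.91 [5.66, 6.17]. Fibroblast-like cells ranked first in every set, their interval lay above that of the next class, and they gave 69.4%, 61.8% and 82.9% of all *Mmp2* UMIs. Smooth muscle-like cells stood between, at 136, 66.8 and 27.2 CPM, and glia-like cells at 209.8, 135 and 181. The ratios to smooth muscle-like cells were 1.08 [0.88, 1.29], 2.17 [1.95, 2.41] and 4.25 [3.95, 4.56]. With every cell thinned to 900 UMIs, a *Mmp2* UMI was found in 20.3%, 22.3% and 35.3% of fibroblast-like cells (unthinned 85.4%, 34.0% and 45.05%, medians of 15633, 1258 and 1329.5 UMIs per cell). In leukocyte-like cells, which are not a main source of this gene, the thinned shares were 0%, 0% and 1.79% (unthinned 5.26%, 4% and 2.82%, medians of 10313, 2027 and 2003). The 0 of 38 and 0 of 23 thinned cells in sets 1 and 2 allow shares of cells with a UMI of up to 7.89% and 13.04%.

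*Mmp23* codes for a membrane-anchored MMP that is released by cleavage, and its counts were low. Fibroblast-like cells held 490, 81 and 233 UMIs, or 72.8 [66.5, 79.6], 30.4 [24.2, 37.8] and 60.4 [52.9, 68.6] CPM, against 6.46 [4.57, 8.86], 3.29 [2.17, 4.79] and 1.38 [0.862, 2.08] in epithelium-like cells. The log2 ratios were 3.495 [3.02, 4.01], 3.21 [2.56, 3.89] and 5.46 [4.82, 6.16]. Against smooth muscle-like cells, at 18.4, 33.7 and 7.09 CPM, the ratios were 1.99 [1.45, 2.58], -0.15 [-0.59, 0.29] and 3.09 [2.49, 3.75], so that in set 2 the interval contained 0 while fibroblast-like cells were higher in sets 1 and 3. Pericyte-like cells of set 1 stood higher still, at 126 [95.8, 164] CPM, from 57 UMIs in the same 16 cells that carried fibroblast markers, of which 24.6% came from 1 cell.

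*Adamts4* codes for an aggrecanase, an enzyme that cuts the proteoglycans aggrecan and versican. The highest level was in pericyte-like cells of each set, at 109 [80.4, 144], 174 [75.3, 344] and 862 [738, 999.9] CPM, followed in sets 1 and 3 by endothelium-like cells at 92.1 [74.7, 112] and 337 [299, 379]. The pericyte-like and endothelium-like intervals overlapped in set 1 and lay apart in set 3. Endothelium-like cells of set 2 stood at 20.9 [9.57, 39.7] CPM, below the fibroblast-like level but with overlapping intervals. Fibroblast-like cells held 27.8 [23.96, 32.1], 36.8 [29.9, 44.9] and 195 [181, 209], and epithelium-like cells 1.36 [0.587, 2.68], 2.56 [1.59, 3.91] and 9.44 [7.996, 11.1]. The more numerous fibroblast-like cells gave 48.7%, 54.4% and 47.5% of the UMIs. The log2 ratios of fibroblast-like over epithelium-like cells were 4.35 [3.35, 5.59], 3.85 [3.15, 4.60] and 4.37 [4.11, 4.63], and those of pericyte-like over fibroblast-like cells 1.97 [1.48, 2.43], 2.24 [0.99, 3.28] and 2.14 [1.90, 2.38]. In set 3, 173 UMIs were spread over 62.8% of 129 pericyte-like cells, and no cell gave more than 4.05% of them. The 8 UMIs of set 2 came from 5 of 29 cells, with 50% from 1 cell. The 12 early response genes, which rise within minutes of stress and dissociation, summed to 6698, 6758 and 17316 CPM in pericyte-like, 13426, 4803 and 11289 in fibroblast-like, 8778, 4037 and 7751 in endothelium-like and 8665, 3264 and 4308 in epithelium-like cells. Their part in the *Adamts4* levels was not tested. With cells thinned to 900 UMIs, set 1 held 8 *Adamts4* UMIs in fibroblast-like cells and 0 in both epithelium-like and smooth muscle-like cells, too few for a ratio.

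**Figure D2:**
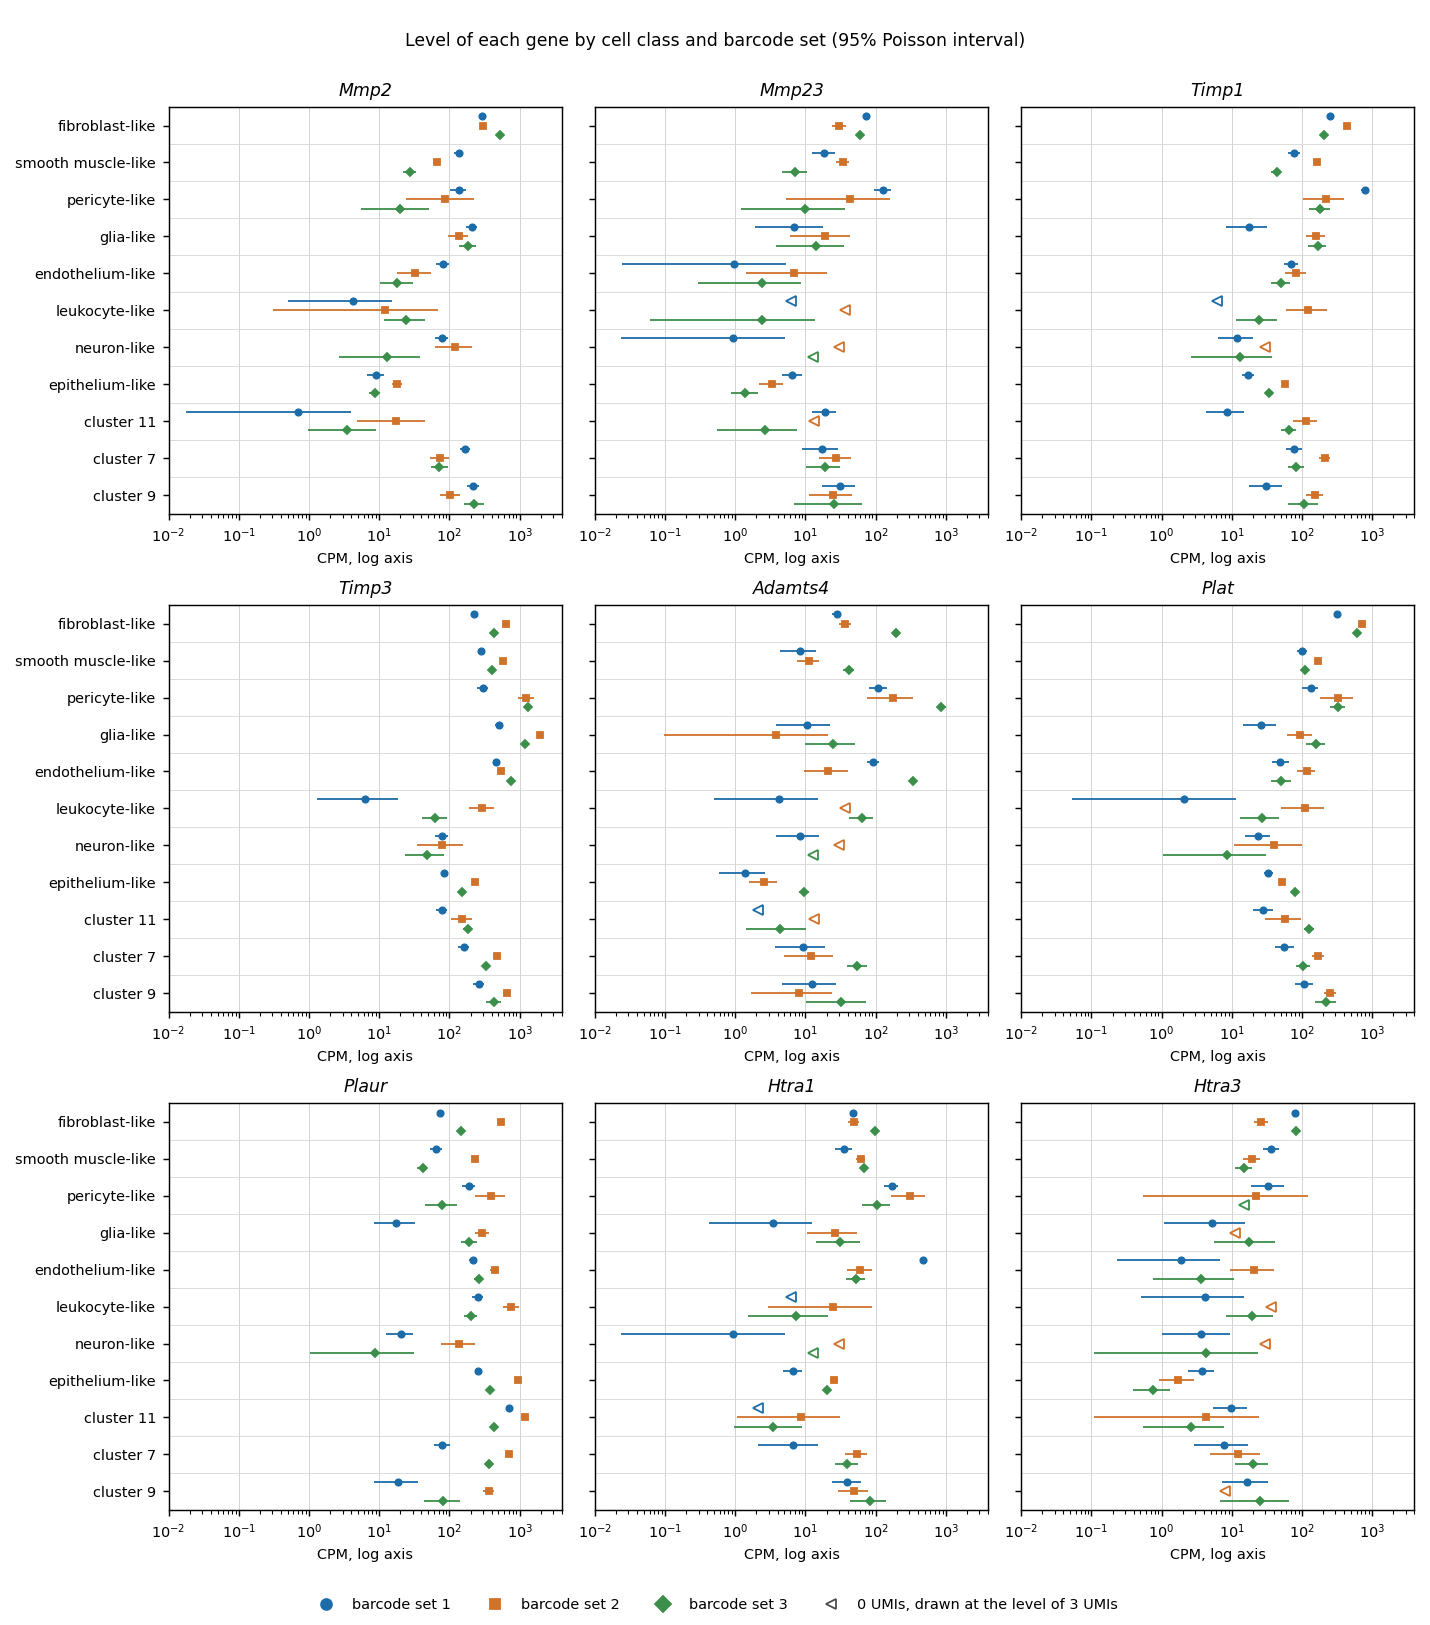
Level of each gene (CPM on a log axis) in 8 named classes and 3 unnamed clusters, with 1 point per barcode set, bars for 95% Poisson intervals and open triangles at the level of 3 UMIs where none was counted. *Adamts4* peaks in pericyte-like cells, *Timp3* in glia-like and pericyte-like cells of sets 2 and 3, and *Plaur* in cluster 11.

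*Timp1* codes for a secreted inhibitor of most MMPs. It stood at 247 [235, 259], 444 [419, 470.5] and 206 [192, 221] CPM in fibroblast-like and 17.2 [13.98, 20.9], 57.0 [51.9, 62.4] and 33.6 [30.8, 36.5] in epithelium-like cells, and the log2 ratios were 3.85 [3.56, 4.15], 2.96 [2.81, 3.12] and 2.62 [2.46, 2.78]. Smooth muscle-like cells held 77.3, 164 and 43.4 CPM, with ratios of 1.68 [1.41, 1.95], 1.44 [1.29, 1.59] and 2.25 [1.995, 2.51], so fibroblast-like cells were higher here as well, but with cluster 2 alone as the fibroblast-like cells the set 1 ratio became -0.89. Pericyte-like cells were higher than fibroblast-like cells in set 1, at 783 [704, 869] CPM, but 40.2% of these 353 UMIs came from 1 of 16 cells, and fibroblast markers were high in these cells, as given with the classes. In sets 2 and 3 they stood at 218 [105, 401] and 179 [126, 248], below fibroblast-like cells in set 2 and with overlapping intervals in set 3. A *Timp1* UMI was found in 7.74%, 22.7% and 12.3% of thinned fibroblast-like cells (unthinned 54.0%, 31.1% and 16.1%) and 0%, 13.04% and 1.79% of thinned leukocyte-like cells (unthinned 0%, 16% and 2.26%), at the medians given for *Mmp2*. No *Timp1* UMI was counted in the 38 leukocyte-like cells of set 1, which allows a share of cells with a UMI of up to 7.89%.

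*Timp3* codes for the TIMP that binds to the matrix and that also inhibits ADAM and ADAMTS enzymes. It was high in glia-like cells, at 506 [449.9, 568], 1938 [1774, 2112] and 1178 [1056, 1311] CPM, and in pericyte-like cells, at 299.5 [251, 355], 1243 [941, 1610.0] and 1309.8 [1156, 1478]. Glia-like cells led in sets 1 and 2 and pericyte-like cells in set 3, where both intervals overlapped. In set 1 endothelium-like cells ranked second, at 455 [415, 498] CPM, overlapping glia-like cells, and pericyte-like cells came after them, overlapping smooth muscle-like cells. Fibroblast-like cells held 221 [209.7, 232], 645 [614, 676] and 433 [413, 455] CPM, smooth muscle-like cells 278 [253, 305], 584 [557, 613] and 409.9 [389, 432] and epithelium-like cells 84.98 [77.7, 92.8], 231 [221, 242] and 149 [144, 156]. The fibroblast-like over epithelium-like log2 ratios were 1.38 [1.23, 1.53], 1.48 [1.38, 1.57] and 1.54 [1.45, 1.63], and against smooth muscle-like cells they were -0.33 [-0.49, -0.18], 0.14 [0.0442, 0.24] and 0.0808 [-0.0216, 0.18]. Glia-like cells exceeded fibroblast-like cells by log2 ratios of 1.198 [1.01, 1.38], 1.59 [1.44, 1.73] and 1.44 [1.27, 1.61]. In thinned cells a *Timp3* UMI was found in 47.6%, 67.2% and 60.0% of glia-like cells against 0%, 21.7% and 2.98% of leukocyte-like cells. Without thinning these were 95.2%, 76.6% and 63.3% in glia-like cells, whose median depths were 21278, 1065.5 and 855 UMIs, and 2.63%, 44.0% and 10.7% in leukocyte-like cells.

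*Plat* codes for tissue plasminogen activator, and its level was highest in fibroblast-like cells. These held 320.2 [307, 334], 721 [689, 754] and 602 [578, 627] CPM and ranked first in each set, with intervals above those of pericyte-like cells at 133 [102, 171], 327 [183, 539] and 324 [249.8, 413]. Epithelium-like cells held 33.1 [28.7, 38.1], 52.1 [47.3, 57.3] and 78.5 [74.3, 83.0] CPM, and the log2 ratios were 3.27 [3.06, 3.49], 3.79 [3.64, 3.95] and 2.94 [2.84, 3.04]. Within epithelium-like cells of set 3 the gene was uneven, at 124 [117, 131] CPM in cluster 4 and 15.3 [12.47, 18.6] in cluster 1. The ratio of cluster 1 over cluster 4 there was -3.02 [-3.32, -2.72], against -0.24 [-0.52, 0.0412] in set 2 and -0.89 [-1.91, -0.0139] in set 1, where cluster 1 had 18 cells. *Mmp2*, *Adamts4* and *Htra1* were higher in cluster 1 of sets 2 and 3, with ratios of 1.79 and 1.78, 2.47 and 2.16, and 1.39 and 2.15. The *Adamts4* value of set 2 rested on 18 against 3 UMIs. In endothelium-like cells, a known source of tPA, *Plat* stood at 49.4, 116 and 50.9 CPM.

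*Plaur*, the urokinase receptor, had its higher level on the epithelial side. Epithelium-like cells held 252 [239, 265], 943 [922, 964] and 381 [371, 391] CPM and fibroblast-like cells 73.9 [67.5, 80.7], 540.2 [513, 569] and 148 [136, 161], with log2 ratios of -1.77 [-1.92, -1.62], -0.80 [-0.89, -0.72] and -1.36 [-1.49, -1.24]. The unnamed cluster 11 ranked first in each set, at 714 [671, 759], 1183 [1046, 1332] and 432 [394, 471] CPM, and its interval lay above that of epithelium-like cells. Leukocyte-like cells held 256 [213, 306], 756 [579.8, 969.5] and 201 [160.0, 249] and endothelium-like cells 217 [189, 247], 444 [383, 512] and 261 [227, 298]. Epithelium-like cells gave 40.8%, 70.1% and 76.5% of the UMIs. Smooth muscle-like cells were low, at 64.6, 233 and 41.4 CPM, and the log2 ratios of fibroblast-like cells over them were 0.19 [-0.12, 0.52], 1.21 [1.08, 1.35] and 1.84 [1.57, 2.11], with an interval containing 0 in set 1. In cells with at least 500 genes, the last of these ratios became -0.27. Thinned shares were 20.97%, 58.3% and 30.1% in epithelium-like and 0%, 0% and 0% in neuron-like cells (unthinned 84.7%, 91.3% and 69.4% at medians of 38929.5, 4101 and 3491.5, and 15.6%, 26.7% and 5.56% at medians of 35457, 7830 and 13266.5). The neuron-like cells were few, and 0 of 31, 0 of 14 and 0 of 18 thinned cells allow shares of up to 9.68%, 21.4% and 16.7%.

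*Htra1* and *Htra3* code for secreted serine proteases of the HTRA family. For *Htra3*, fibroblast-like cells ranked first in each set, with overlapping intervals of other classes in set 2. Fibroblast-like cells held 80.0 [73.4, 87.0], 26.3 [20.5, 33.2] and 81.9 [73.1, 91.4] CPM, smooth muscle-like cells 36.7 [27.9, 47.5], 19.2 [14.6, 24.9] and 15.03 [11.3, 19.7] and epithelium-like cells 3.74 [2.34, 5.66], 1.71 [0.933, 2.86] and 0.750 [0.388, 1.31], from 22, 14 and 12 UMIs in the last. The log2 ratios over epithelium-like cells were 4.42 [3.81, 5.11], 3.94 [3.104, 4.89] and 6.77 [5.94, 7.74], and over smooth muscle-like cells 1.12 [0.73, 1.54], 0.45 [-0.0733, 0.98] and 2.45 [2.02, 2.89], with an interval containing 0 in set 2. *Htra1* stood at 47.9 [42.8, 53.4], 48.8 [40.8, 58.0] and 97.2 [87.6, 108] CPM in fibroblast-like, 34.8 [26.2, 45.3], 61.0 [52.5, 70.6] and 67.5 [59.2, 76.7] in smooth muscle-like and 6.63 [4.71, 9.06], 25.7 [22.4, 29.4] and 20.1 [17.995, 22.5] in epithelium-like cells. Its ratio over epithelium-like cells fell short of 2-fold in set 2, at 0.92 [0.60, 1.25], and the difference of mean deposited natural log values there was -0.00886, on the other side of 0. Of the epithelium-like cells in set 2, cluster 1 held 36.6 CPM of *Htra1* and cluster 4 held 13.95. The part of this mix in the ratio was not tested. Pericyte-like cells held 169 [133, 211], 305 [167, 512] and 105 [64.7, 159.9] CPM of *Htra1*, and led in sets 2 and 3, with an overlap with fibroblast-like cells in set 3. Endothelium-like cells of set 1 led at 469 [429, 512] CPM, but 51.0% of their 494 UMIs came from 1 of 38 cells.

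Against smooth muscle-like cells, 6, 5 and 7 of the 9 genes were at least 2-fold higher in fibroblast-like cells, where 9.74%, 11.5% and 16.7% of all genes passed, and 0 were at least 2-fold lower, where 5.51%, 11.1% and 13.3% passed. *Mmp2*, *Timp1*, *Adamts4* and *Plat* passed in all 3 sets, and *Timp3* and *Htra1* in none. The count of set 1 rested on cluster 3: with cluster 2 alone as the fibroblast-like cells, 1 gene passed there, and the ratios of *Htra1* and *Htra3* in set 1 became -0.36 and -0.26. Without the cells that held more than 10 erythroid UMIs, the counts were 6, 5 and 7, in an alternative that, like the one by cluster, was chosen after seeing the data.

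Fibroblast-like cells fell into 2 clusters. Cluster 2 was led by *Lamc3*, *Col15a1* and *Tcf21*, and cluster 3 by *Dpt*, *Ptx3* and *Lum*. Cluster 2 had 206, 814 and 1532 cells in the sets, and cluster 3 had 144, 887 and 1132. *Mmp2* was higher in cluster 2, at 356 [337, 377], 358 [325, 394] and 664 [629, 699.9] CPM against 215 [199.7, 232], 256 [231, 283] and 345 [319, 374], as was *Timp3*, at 294, 832 and 488 against 144, 496 and 369. *Htra3* was higher in cluster 3, at 131 [119, 144], 33.002 [24.4, 43.6] and 124 [108, 142] CPM against 30.6 [25.01, 37.0], 17.8 [11.04, 27.3] and 46.0 [37.3, 56.2], and so was *Mmp23*, at 124, 37.0 and 78.4 against 23.6, 22.1 and 45.03. The log2 ratios of cluster 2 over cluster 3 were 0.73 [0.59, 0.86], 0.49 [0.28, 0.69] and 0.94 [0.80, 1.08] for *Mmp2* and -2.10 [-2.43, -1.79], -0.89 [-1.70, -0.12] and -1.43 [-1.79, -1.08] for *Htra3*, and these 4 genes kept their sign in each set.

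For 8 of the 9 genes the ratio of cluster 2 over cluster 3 was farther from 0 in set 1 than in sets 2 and 3, *Mmp2* being the exception. *Timp1* stood at 461 [438, 485] CPM in cluster 3 and 41.6 [35.1, 49.1] in cluster 2 of set 1, and its log2 ratios were -3.47 [-3.73, -3.22], -0.0703 [-0.24, 0.0979] and -0.14 [-0.34, 0.0663]. For *Plaur* they were -3.04 [-3.47, -2.63], -0.0242 [-0.18, 0.13] and -0.27 [-0.51, -0.0299], for *Adamts4* -2.23 [-2.81, -1.69], 0.57 [-0.0299, 1.18] and 0.31 [0.0942, 0.52] and for *Plat* -1.76 [-1.91, -1.62], 0.98 [0.84, 1.11] and 0.12 [-0.0000107, 0.24]. *Plat* thus changed side, with a higher level in cluster 3 of set 1 and in cluster 2 of set 2. In set 1, 7 genes were at least 2-fold lower in cluster 2 and 1 (*Timp3*) was higher, where 9.07% and 20.3% of all genes passed. In sets 2 and 3 the counts lower were 0 and 1 (*Htra3*), where 6.12% and 6.86% passed, and 0 were higher in both, where 5.12% and 6.57% passed. Median depth in set 1 was 14158 UMIs per cell in cluster 2 and 19351 in cluster 3. Fibroblast markers summed to 8457, 9385 and 12790.1 CPM in cluster 2 and 23193, 21091 and 23886 in cluster 3, and early response genes to 16794, 5968 and 11458 in cluster 2 and 9915, 3879 and 11089.9 in cluster 3. The part of depth and of these sums in the ratios was not tested.

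**Figure D3:**
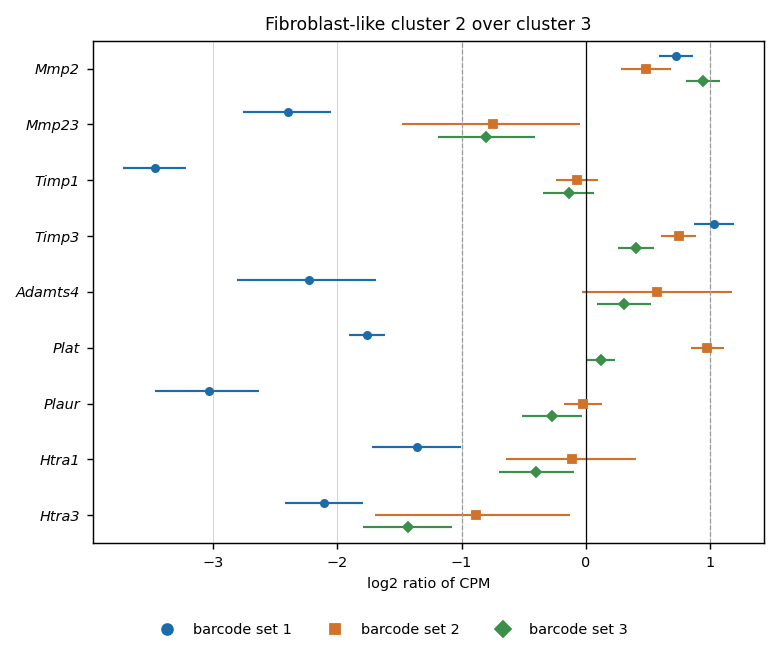
Log2 ratio of CPM in fibroblast-like cluster 2 over cluster 3 for each gene, with 1 point per barcode set, bars for 95% counting intervals and dashed lines at 2-fold. The points of set 1 lie far left of those of sets 2 and 3 for *Timp1*, *Plaur*, *Adamts4* and *Plat*.

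Clustering at resolution 1.0 in place of 0.5 split cluster 3, and the resulting clusters were chosen for description after their values were seen. Cluster 8 of that clustering, led by *Ptx3*, *Dpt* and *Postn*, had 73, 133 and 251 cells, of which 73, 132 and 250 were from cluster 3. Cluster 1 held most of the rest of cluster 3. Cluster 0 held 105, 699 and 1342 cells of cluster 2, and 86, 65 and 40 cells of cluster 2 went to an unnamed cluster that carried 9 fibroblast and 6 smooth muscle markers, so the make-up of cluster 2 differed between set 1 and the other sets. In set 1, *Timp1* stood at 681 [646, 718] CPM in cluster 8, 78.0 [63.8, 94.4] in cluster 1 and 40.4 [30.9, 51.7] in cluster 0. The excess of cluster 3 in set 1 lay mostly in these 73 cells, 95.9% of which had a *Timp1* UMI without thinning (leukocyte-like cells, 0 of 38). Median depth in set 1 was 19351 UMIs in cluster 3 and 10313 in leukocyte-like cells, and its part in these shares was not tested. *Mmp23* and *Htra3* were concentrated there in every set: *Mmp23* stood at 187 [169, 207], 109 [73.3, 155] and 198 [160.3, 242] CPM in cluster 8 and 13.4 [7.93, 21.1], 20.8 [13.6, 30.5] and 35.1 [26.0, 46.4] in cluster 1. *Htra3* stood at 193 [175, 213], 65.2 [38.6, 103] and 273 [228, 324] CPM in cluster 8 and 24.5 [16.9, 34.4], 26.4 [18.2, 37.1] and 69.5 [56.4, 84.8] in cluster 1. *Htra1* followed the same order, at 99.9, 76.1 and 206 against 12.6, 45.6 and 70.9 CPM, although the intervals of set 2 overlapped. *Timp1* exceeded cluster 1 in sets 1 and 2 but not in set 3, where it stood at 189.8 [153, 233] against 208 [185, 234] CPM. *Mmp2* was highest in cluster 0, at 511, 392 and 723 CPM, against 206, 301 and 455 in cluster 8.

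**Figure D4:**
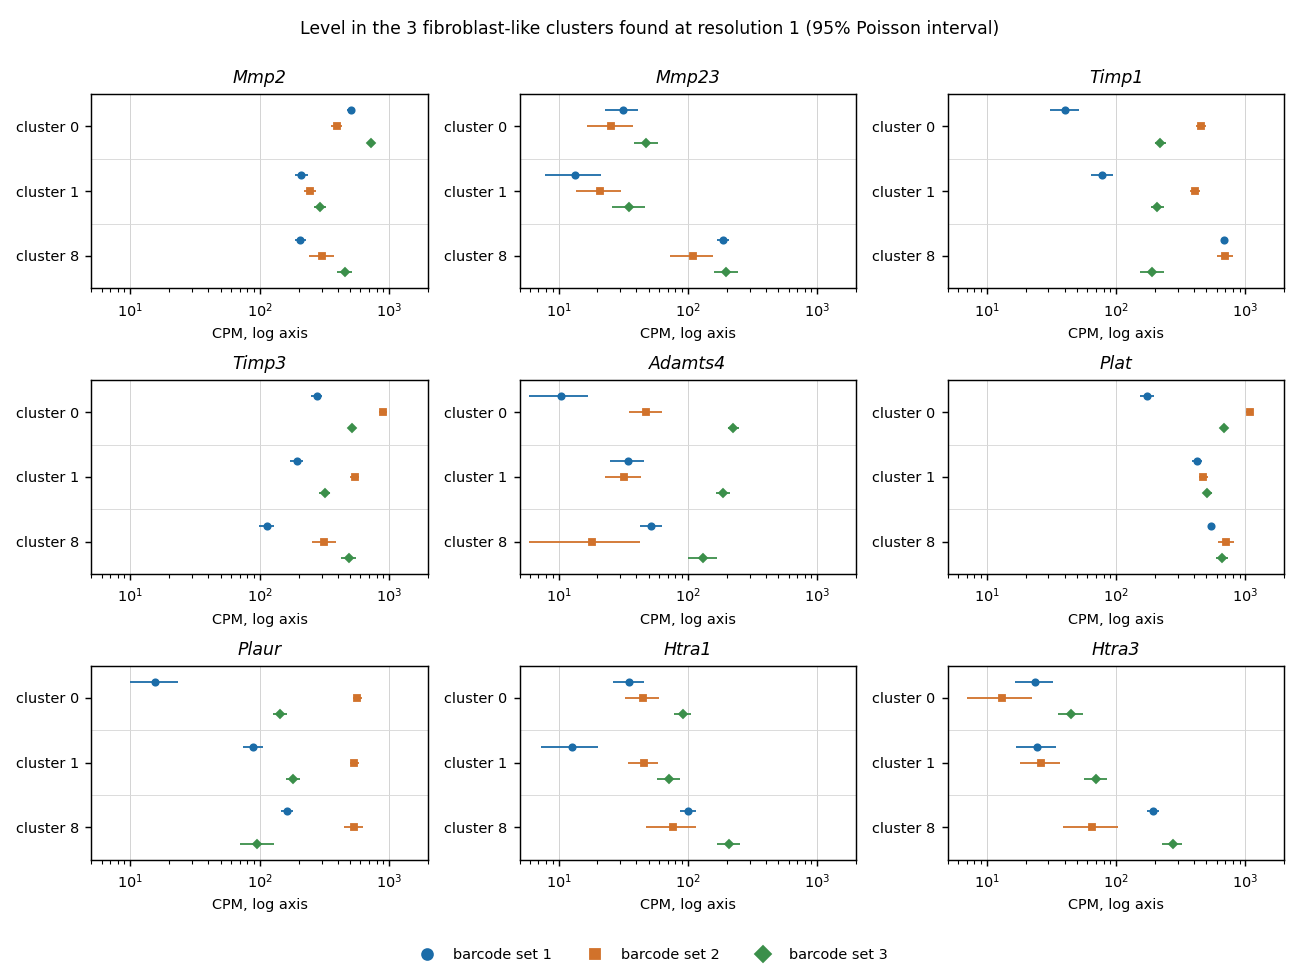
Level (CPM on a log axis) in the 3 fibroblast-like clusters found at resolution 1, with 1 point per barcode set and bars for 95% Poisson intervals. *Mmp23* and *Htra3* are highest in cluster 8 in all 3 sets, *Mmp2* in cluster 0, and *Timp1* of set 1 is high in cluster 8 alone.

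The table has a row for EGFP, the reporter transcript. Of the 350 fibroblast-like cells of set 1, 210 had an EGFP UMI and 140 had none, at medians of 16451 and 14392 UMIs per cell. *Timp1* stood at 287 [272, 303] CPM in those with and 162 [145, 179.5] in those without. The shares of cells with a *Timp1* UMI were 55.7% and 51.4%, then 9.05% and 5.76% with cells thinned to 900 UMIs, and 12.4% and 12.4% at 1200 UMIs. The largest single cell gave 12.9% of the UMIs of the former. Within cluster 3 the levels were 560.3 [529, 593] and 272 [243, 304] CPM, at medians of 23985.5 and 16592.5 UMIs per cell, and within cluster 2 43.4 [35.5, 52.5] and 37.5 [26.6, 51.5], with overlapping intervals. *Timp3* stood at 237 [223, 252] against 186 [168, 205] CPM in fibroblast-like cells, and the intervals lay apart in cluster 2 and overlapped in cluster 3. *Mmp2* stood at 271 [256, 286] against 323 [299, 348] CPM, again with intervals apart in cluster 2 and overlapping in cluster 3. *Plat* stood at 307 [291, 323] against 349 [325, 375] CPM, with overlapping intervals within each cluster. Deeper cells are more likely to show an EGFP UMI, and the part of depth was not tested. Within cluster 3, *Htra1* stood at 83.0 [71.2, 96.0] against 44.0 [32.7, 58.1] CPM and *Plaur* at 147 [132, 164] against 108 [90.0, 129], with intervals apart. For *Htra1*, 1 cell gave 15.1% of the UMIs of those with an EGFP UMI. The shares of these cells with a *Htra1* UMI had no steady order: 3.66% against 11.3% thinned to 900 UMIs, and 7.32% against 4.84% at 1200. Within cluster 2, *Mmp23* was lower with an EGFP UMI, at 17.3 [12.499, 23.4] against 38.5 [27.4, 52.7] CPM. In the respective other cluster the intervals of these genes overlapped, and those of *Adamts4* and *Htra3* overlapped in both clusters. A count of 0 does not show that the reporter was off, so these are 2 ranges of a count and not 2 lineages.

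Beyond the 9 genes, 99 genes of protease and inhibitor families were listed, of which 53 have a row and 39 had enough UMIs in all sets. Of these 39, 18 were at least 2-fold higher in fibroblast-like than in epithelium-like cells in every set and 10 at least 2-fold lower, against 12.7% and 7.65% of all genes, and 11 did neither. Among the MMP family the higher genes were *Mmp16*, a membrane-type MMP, with log2 ratios of 4.28, 3.94 and 6.55, and *Mmp19*, with 4.27, 5.24 and 6.56, while the membrane-type *Mmp15* was lower, with -2.76, -3.13 and -3.79. Of the ADAM family, 4 of 6 were higher, led by *Adam12* at 5.30, 4.50 and 5.99, and of the ADAMTS family 1 of 3, *Adamts9*, at 2.75, 1.81 and 2.48. *Pcolce*, the enhancer of procollagen C-proteinase, stood at 4.55, 4.65 and 6.60. In the plasminogen system *Serpinb5* (maspin) was lower, with -7.42, -4.81 and -6.07, as was *Serpinb2* (an inhibitor of urokinase), with -1.16, -2.15 and -1.72.

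**Figure D5:**
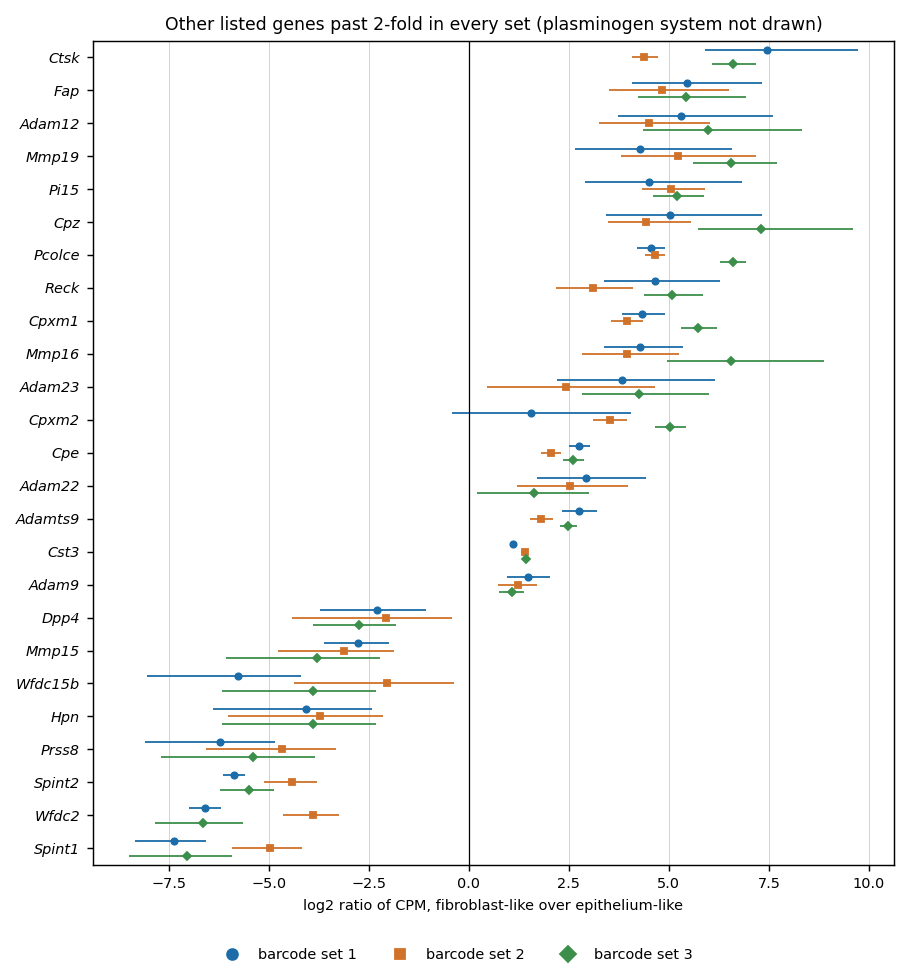
Log2 ratio of CPM in fibroblast-like over epithelium-like cells for the other protease and inhibitor genes past 2-fold in every set, those of the plasminogen system not drawn, with 1 point per barcode set and bars for 95% counting intervals. The stromal side holds *Ctsk*, *Fap* and *Mmp19*, and the epithelial side *Spint1*, *Wfdc2* and *Prss8*.

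Other secreted or membrane proteases gave 6 of 13 higher and 3 lower. The collagen-cutting cathepsin *Ctsk* led with 7.45, 4.39 and 6.60, followed by *Fap*, fibroblast activation protein, with 5.44, 4.82 and 5.42, and *Cpz* with 5.02, 4.43 and 7.31. On the epithelial side stood the membrane serine proteases *Prss8* (prostasin), with -6.22, -4.69 and -5.41, and *Hpn* (hepsin), with -4.07, -3.72 and -3.90, and the peptidase *Dpp4*, with -2.29, -2.08 and -2.76. Inhibitors split by class: of 7 other inhibitors, *Pi15*, *Reck* (a membrane-anchored MMP inhibitor) and *Cst3* were higher in fibroblast-like cells, with 4.51, 5.06 and 5.21 for *Pi15*, 4.64, 3.101 and 5.08 for *Reck* and 1.11, 1.40 and 1.42 for *Cst3*. The other 4 were lower, with the largest ratios for *Spint1*, *Wfdc2* and *Spint2*. *Spint1* (HAI-1), an inhibitor of membrane serine proteases, stood at 299, 142 and 207 CPM in epithelium-like and 1.78, 4.51 and 1.55 in fibroblast-like cells. The 1 other HTRA gene with enough UMIs passed in neither direction, and 3 of 12 early response genes were higher (*Ier2*, *Fosb* and *Klf2*).

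The level profiles of the 9 genes were compared over 29 class and set pairs with at least 20 cells, which share libraries, depth and free RNA, so the correlations are descriptions. *Timp1* and *Plat* were the most alike of the 36 pairs, with Pearson's r of 0.91 on the log2(CPM + 5) scale, and *Mmp2* and *Plaur* the least alike, with -0.44. Among the 7107 genes outside the lists that were ranked, those nearest to *Mmp2* were *Col5a2* (0.90), *Mfap2* (0.89) and *Col5a1* (0.87), of which the first and last code for collagen V chains. Marker genes were not left out of the ranking, and *Col5a2* and *Mfap5* (below) were fibroblast markers from which classes were named. Nearest to *Timp3* were *Lamc1* (0.91), *Col4a1* (0.90) and *Prkcdbp* (0.90), with a laminin and a collagen IV chain of basement membrane. *Adamts4* was nearest to *Lrrc32* (0.89), *Il6* (0.85) and *Etnk1* (0.81), and *Timp1* to *Sec24d* (0.88), *Fgfr1* (0.85) and *Antxr1* (0.85). *Mmp23* was nearest to *Pdgfrl* (0.84), *Gpc3* (0.82) and *Nppc* (0.81) and *Htra3* to *Pdgfrl* (0.71), *Dkk3* (0.70) and *Pappa2* (0.70). *Htra1* was nearest to *Ehd2* (0.87), *Sparcl1* (0.84) and *Eln* (0.84), the last of which codes for elastin. *Plat* was nearest to *Serping1* (0.85), *Mfap5* (0.83) and *Ptp4a1* (0.82) and *Plaur* to *Lrrfip1* (0.82), *Llph* (0.82) and *Vps4b* (0.82).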

How the data were processed

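Single cells of 3 mouse samples, with 1 library per group, were captured by a 10x Genomics 3′ method (the labels and the methods name different chemistry versions). Per the labels the reads were processed with Cell Ranger 3.1.0 on mm10. The deposited table, made by the authors, holds natural log values, ln(1 + 10000 × UMIs / total UMIs of the cell), with replicates not pooled and cells of all samples side by side. UMIs were recovered from it as whole numbers, within 0.05, for all 11120281 values above 0. Of 9784 rows, 1 partly empty row and 2 that share a name were left out, and the remaining 9781 hold 52.7%, 50.4% and 49.4% of the UMIs of sets 1, 2 and 3. Other genes were not analysed here. The result of 1 listed gene is not reported here.

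Cells with fewer than 200 genes were left out (97, all of set 3). Clustering used Seurat 5.3.0 in R 4.3.3, with integration of the sets over 20 dimensions of 2000 features, regression of cell cycle scores (26 S and 33 G2M genes), 30 principal components and resolution 0.5. The 9 genes, the listed genes and EGFP were not among the features. A marker was carried if at least 10% of a cluster's cells held it, at 2-fold the median CPM of clusters or more. A cluster took the name of the list carried to the largest share, with at least 3 markers carried. That list also needed as many of the cluster's 10 leading genes as any other list. It needed more than any list whose share passed 50% of its own. Cluster 11 stayed unnamed because 1 leukocyte marker and no epithelial marker was among its 10 leading genes. The scoring rule was set after the clusters were seen. Doublet scores (scanpy 1.11.5) put 3, 0 and 0 cells over the threshold, so the caller found almost none, and no cell was removed.

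CPM is UMIs summed over cells per 1000000 UMIs, with exact Poisson intervals. Shares have Clopper-Pearson intervals, with 3 cells of the total as the limit printed beside a share of 0, and log2 ratios have intervals from the exact binomial split. Sums under 3 UMIs were set to 3 in ratios. A gene was counted past a fold of 2 with at least 10 UMIs over both classes. No test was run, since cells are not replicates. For shares, cells were thinned to 900 UMIs, which left out 7, 342 and 693 cells. In simulated data of 600 cells per set and 200 genes changed 4-fold, only the recovery of UMIs and the ratios were run, on 2 groups of known cells. Of the changed genes with at least 3 UMIs in each group, 94.4%, 93.4% and 96.8% were past 2-fold. Clustering, the naming of classes, free RNA and differences between cells of a class were not simulated, so these values do not cover them. All 9 genes are named, and of each other list up to 3 genes per direction with the largest median log2 ratio among those past 2-fold in every set. For each of the 9, the 3 genes outside the lists with the highest Pearson correlation are named, among genes with at least 100 UMIs. The members and lists were chosen with earlier results of these data known. Of the rows, 9272 (94.8%) matched a RefSeq symbol or synonym, from which positions were taken.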

Additional observations from a re-analysis of the deposited data

Results flagged for a closer look

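For some genes the direction of a ratio differed between sets, with intervals on opposite sides of 0. The log2 ratio of *Timp3* in fibroblast-like over smooth muscle-like cells was -0.33 [-0.49, -0.18] in set 1 and 0.14 [0.0442, 0.24] in set 2. The ratio of *Adamts4* in cluster 2 over cluster 3 was -2.23 [-2.81, -1.69] in set 1 and 0.31 [0.0942, 0.52] in set 3, and that of *Plat* was -1.76 [-1.91, -1.62] in set 1 and 0.98 [0.84, 1.11] in set 2.

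In pericyte-like over fibroblast-like cells, the ratio of *Timp1* was 1.67 [1.496, 1.83] in set 1 and -1.03 [-2.09, -0.14] in set 2. That of *Mmp23* was 0.80 [0.37, 1.19] in set 1 and -2.01 [-4.30, -0.45] in set 3, from 2 pericyte-like UMIs in set 3, set to 3 in the ratio, and that of *Plaur* was 1.35 [1.003, 1.69] in set 1 and -0.89 [-1.71, -0.18] in set 3. In endothelium-like over fibroblast-like cells, *Timp3* had 1.04 [0.89, 1.19] in set 1, -0.24 [-0.44, -0.0415] in set 2 and 0.80 [0.67, 0.94] in set 3, and *Plaur* had 1.55 [1.32, 1.78] in set 1, -0.28 [-0.51, -0.0644] in set 2 and 0.82 [0.58, 1.05] in set 3. *Htra1* had 3.29 [3.09, 3.5002] in set 1 and -0.90 [-1.39, -0.44] in set 3, and 51.0% of its endothelium-like UMIs in set 1 came from 1 cell. The intervals cover counting error only, each set was 1 library, and the difference between sets was not tested.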

How the results depend on the processing

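Of 64 recomputed counts of genes past 2-fold, 63 stayed within 1.5 times the reported count. The exception was the count against smooth muscle-like cells in set 1, which went from 6 to 1 with cluster 2 alone as the fibroblast-like cells, an alternative chosen after seeing the data. In that alternative 5 ratios over smooth muscle-like cells in set 1 changed sign, to -1.99 for *Plaur* (whose reported interval contained 0), -0.89 for *Timp1*, 0.0825 for *Timp3*, -0.36 for *Htra1* and -0.26 for *Htra3*. With cluster 3 alone, *Timp3* in set 2 became -0.24. With cells thinned to 900 UMIs, *Htra1* over smooth muscle-like cells in set 1 became -0.13, from 17 against 4 UMIs. *Adamts4* of set 1 then had 8 UMIs against 0 in both other classes, and with 3 in place of the 0 its ratios of -0.0778 over epithelium-like and -0.80 over smooth muscle-like cells are lower bounds, which show no change of sign. With at least 500 genes per cell, *Plaur* over smooth muscle-like cells in set 3 became -0.27. As a difference of mean deposited natural log values, *Htra1* over epithelium-like cells in set 2 became -0.00886. The cause of the other changes was not tested. Counting these bounds, 2 of 288 ratios over epithelium-like cells changed sign, and 17 of 288 over smooth muscle-like cells, of which 9 had a reported interval that contained 0. Not counting reversals of ratios whose interval lay on 1 side of 0, 90 and 76 of these ratios moved outside the reported interval. Over epithelium-like cells in set 1, *Timp1* ranged from 1.28 to 5.92 and *Timp3* from 0.76, below 2-fold, to 1.79. Of 108 shares 81 moved beyond their interval with depth.

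No paired analysis was possible because no test was run, with 1 library in each group. Set 1 gave no value without integration, with 5 fibroblast-like cells there. The counts were not run on mean log values, where 2-fold is not defined, and no fibroblast-like cluster was led by mitotic genes. Few UMIs limit *Mmp23*, *Htra3*, *Adamts4* and the pericyte-like levels, and values of 3 UMIs or fewer give no order.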
